A study of Homo sapiens with 39 samples.

Results

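The 8 genes described here are the aryl hydrocarbon receptor AHR, its partner ARNT and 6 genes that the receptor is known to control, namely CYP1A1, CYP1A2, CYP1B1, ALDH3A1, AHRR and TIPARP. They were taken by symbol from the 20802 gene targets of the expression table, and each is measured by 1 amplicon: AMPL5175693 for CYP1A1, AMPL5480580 for CYP1A2, AMPL1643513 for CYP1B1, AMPL5433752 for ALDH3A1, AMPL6723696 for AHRR, AMPL9812847 for TIPARP, AMPL8460815 for AHR and AMPL10772887 for ARNT. Because amplicons differ in efficiency, levels of different genes were not compared with each other.

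HepaRG™ is an established human hepatic progenitor line whose differentiated cultures hold cells like hepatocytes and cells like cholangiocytes, and every group was made from such cultures. The 39 libraries comprised 30 treated conditions, 10 chemicals at a low, mid and high concentration each, and 9 vehicle controls, and 1 library held the pooled RNA of 3 cultures. In DMSO were 2-nitrofluorene (2NF; 10, 50 and 250 µM), aflatoxin B1 (AFB1; 0.25, 1 and 2.5 µM), colchicine (COL; 0.05, 0.1 and 0.3 µM), cisplatin (CISP; 2, 5 and 10 µM) and etoposide (ETP; 0.5, 2.5 and 10 µM), with 4 DMSO controls, 1 of which AFB1 and COL share. In culture medium were 2-deoxy-D-glucose (2DG; 1.25, 5 and 10 mM), ampicillin trihydrate (AMP; 1, 3 and 10 mM), sodium ascorbate (ASC; 1, 2 and 10 mM) and sodium chloride (NaCl; 1, 2.5 and 10 mM), with 4 media controls, and in water was methyl methanesulfonate (MMS; 50, 100 and 200 µM), with 1 control. AFB1, CISP, ETP, MMS and 2NF are the DNA damage-inducing (DDI) chemicals of the study, and the other 5 are non-DDI. All cells were exposed daily for 3 days and sampled hours after the third treatment. Total counts per library ranged from 8504699 to 16425527. Of the hepatocyte markers, ALB lay between 2299 and 36331 RPM (reads scaled to a common library total) and SERPINA1 between 5.37 and 25.3 RPM. TAT had a median of 4.97 RPM and was at 0 RPM in its lowest library. Of 10 cholangiocyte markers, 4, among them KRT7, EPCAM and CFTR, had a median of 0 RPM over the 39 libraries. KRT19 had a median of 974 RPM.

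AHR is a receptor of the basic helix-loop-helix PAS family that rests in the cytoplasm with the chaperone HSP90. When it binds a planar aromatic ligand it enters the nucleus, pairs with ARNT and binds response elements with the core GCGTG, which raises transcription of the CYP1 genes and of ALDH3A1. AHRR, a repressor that competes with AHR, and TIPARP, an enzyme that attaches ADP-ribose to the receptor, are induced by the same complex and act back on it, and in liver the CYP1 enzymes oxidise polycyclic aromatic compounds, drugs such as caffeine, and aflatoxins.

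The sequences before the transcription start of CYP1A1, CYP1A2 and TIPARP are given because CYP1A1 and TIPARP were among the genes highest in the 2NF libraries relative to their control, whereas CYP1A2 parted from them at the upper 2NF concentrations. They are the 250 bases before the start in RefSeq on GRCh38.p14, 5′ to 3′ on the strand of the gene. Capitals mark GCGTG or its reverse complement CACGC.
CYP1A1: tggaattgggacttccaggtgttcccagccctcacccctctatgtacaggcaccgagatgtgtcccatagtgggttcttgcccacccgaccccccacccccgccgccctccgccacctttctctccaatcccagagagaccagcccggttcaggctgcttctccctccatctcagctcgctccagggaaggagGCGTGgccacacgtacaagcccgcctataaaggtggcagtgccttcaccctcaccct
CYP1A2: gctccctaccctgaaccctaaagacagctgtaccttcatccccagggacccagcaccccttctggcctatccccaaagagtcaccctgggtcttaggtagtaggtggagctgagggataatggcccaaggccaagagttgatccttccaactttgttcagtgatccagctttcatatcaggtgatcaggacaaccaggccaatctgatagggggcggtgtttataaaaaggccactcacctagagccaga
TIPARP: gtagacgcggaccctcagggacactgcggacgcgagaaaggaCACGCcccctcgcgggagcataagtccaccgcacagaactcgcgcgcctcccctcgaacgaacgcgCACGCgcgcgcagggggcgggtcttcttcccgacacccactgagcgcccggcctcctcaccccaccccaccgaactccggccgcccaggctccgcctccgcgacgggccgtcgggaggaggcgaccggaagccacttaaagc
The CYP1A1 window is chr15:74725529-74725778 on the minus strand, the CYP1A2 window is chr15:74748595-74748844 on the plus strand, and the TIPARP window, of the first of 3 annotated starts, is chr3:156674340-156674589 on the plus strand. CYP1A1 had 1 match, 53 to 57 bases before the start, CYP1A2 had 0 in this window, and TIPARP had 2, both on the opposite strand. The windows of TIPARP starts 2 and 3 held 0. AHRR, whose windows are not printed, had 1 match at its first start and 2 at its second. In every 2NF library AHRR was within 2-fold of its control, which held the highest AHRR value of the 39 libraries. Both strands were searched and matches may overlap. Of the 8 genes, 6 had an entry (all but CYP1B1 and ALDH3A1), with 9 starts in all, and 4 of these 9 windows, in CYP1A1, AHRR and TIPARP, held GCGTG. The same letters were found in 32.2% of the 35116 windows of all genes, and the longer TNGCGTG in 4.5% of them and in 1 window of an AHRR start. A match of letters is a description of the window, not evidence of a bound site.

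Controls of different vehicles differed in the receptor's targets. CYP1A1, CYP1A2, CYP1B1, ALDH3A1 and TIPARP were all higher in the 4 DMSO controls than in the 4 media controls. CYP1A1, which encodes the P450 enzyme most used as a readout of AHR, was at 226 RPM in the DMSO control of 2NF, 132 in that of AFB1 and COL, 414 in that of CISP and 435 in that of ETP. In the media controls it was at 46.5 RPM for 2DG, 25.6 for AMP, 33.1 for ASC and 52.4 for NaCl, and the water control was at 39.9. The lowest DMSO control therefore lay above the highest control of the other vehicles. The difference between DMSO and media was 2.97 ± 0.36 on the log2 scale (edgeR's quasi-likelihood test, adjusted p = 0.0019, n = 4 and 4 libraries). Here and for every fitted difference, ± gives a standard error worked back from the difference and the F statistic of that test.

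CYP1A2, the hepatic enzyme that oxidises caffeine, was at 23.8, 19.2, 28.9 and 38.6 RPM in the DMSO controls of 2NF, of AFB1 and COL, of CISP and of ETP. In the media controls of 2DG, AMP, ASC and NaCl it was at 1.84, 4.53, 3.90 and 5.69 RPM, with 2.70 in water. The groups did not overlap, and the log2 difference was 2.84 ± 0.32 (adjusted p = 0.0015).

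CYP1B1, an enzyme that hydroxylates oestradiol and polycyclic hydrocarbons, was at 118, 35.3, 390 and 369 RPM in the DMSO controls in the same order, and between 19.8 and 30.6 RPM in the media controls. Its log2 difference was 3.21 ± 0.59 (adjusted p = 0.013). The DMSO controls did not overlap the media controls, but they differed among themselves by up to 3.43 in log2(RPM + 1), the widest spread of the 8 genes. For CYP1A1 the largest difference between DMSO controls was 1.71, and for the other 6 genes it ran from 0.34 for ARNT to 0.97 for CYP1A2.

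ALDH3A1, an aldehyde dehydrogenase, was between 403 and 712 RPM in DMSO and between 206 and 319 RPM in media (log2 difference 1.18 ± 0.21, adjusted p = 0.010). TIPARP was between 40.0 and 79.3 RPM in DMSO and between 20.3 and 36.5 RPM in media (1.07 ± 0.24, adjusted p = 0.029). The lowest TIPARP value in DMSO lay close to the water control of 39.2 RPM. TIPARP passed the threshold in the full set and lost it without the CISP or ETP DMSO control or the AMP or ASC media control, with a highest adjusted p of 0.094.

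The 3 remaining genes did not pass. AHRR was between 24.97 and 40.7 RPM in DMSO and between 18.9 and 24.4 RPM in media, without overlap (0.60 ± 0.16, adjusted p = 0.059), and it passed without the AFB1 and COL control and with DESeq2 (lowest adjusted p 0.019). AHR itself was between 40.5 and 59.4 RPM in DMSO and between 26.6 and 51.1 RPM in media (0.49 ± 0.20, adjusted p = 0.19). ARNT differed by 0.10 ± 0.10 (adjusted p = 0.64), with 113 to 143 RPM in DMSO and 117 to 130 RPM in media.

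In all, 5 of the 8 genes were called higher in DMSO and 0 lower, where 1.61% of 13748 genes tested were called higher and 3.46% lower. The median log2 difference was 1.12 over the 8 genes and 0.025 over all genes. For 6 of the 8 genes every DMSO control lay above every media control, which 4.79% of 12790 genes did. Vehicle, chemical set and any culture date that went with a set cannot be told apart in these libraries.

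Other liver genes moved with the vehicle. Of 12 other hepatic P450 genes, 6 were called higher in DMSO, among them CYP2A6, CYP2B6, CYP2E1, CYP3A4 and CYP3A5, and 0 lower, with a median log2 difference of 0.88, and their summed level was 928 to 1445 RPM in DMSO and 351 to 661 RPM in media. Of 10 hepatocyte markers, TTR and APOA1 were called higher, and the summed level was 35789 to 50247 RPM in DMSO and 25941 to 34472 RPM in media. Of 10 cholangiocyte markers 6 were tested: 1, SOX9, was called higher and 2, among them SPP1, lower, with summed levels of 472 to 1349 RPM in DMSO and 1078 to 1470 RPM in media. These genes were named after their values were seen. Their part in the differences of the 8 genes was not tested, and in pooled cultures fewer cells of a type and less RNA per cell cannot be told apart.

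The treated libraries were set beside those of the other vehicles in the same way. CYP1A1 lay above the highest media or water library (53.5 RPM) in all 19 libraries of the DMSO sets, the lowest of which was COL at 0.3 µM with 70.4 RPM. This held for 5 of 12790 genes (0.0391%), the others being DEPTOR, ENSA, LOC154761 and UGT1A3, named after their values were seen. CYP1B1 lay above the highest media or water library in 18 of 19 DMSO libraries, ALDH3A1 in 17, CYP1A2 in 16, TIPARP in 14, AHR in 10, AHRR in 8 and ARNT in 2. The share of all genes that reached these lower counts was not computed.

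**Figure D1:**
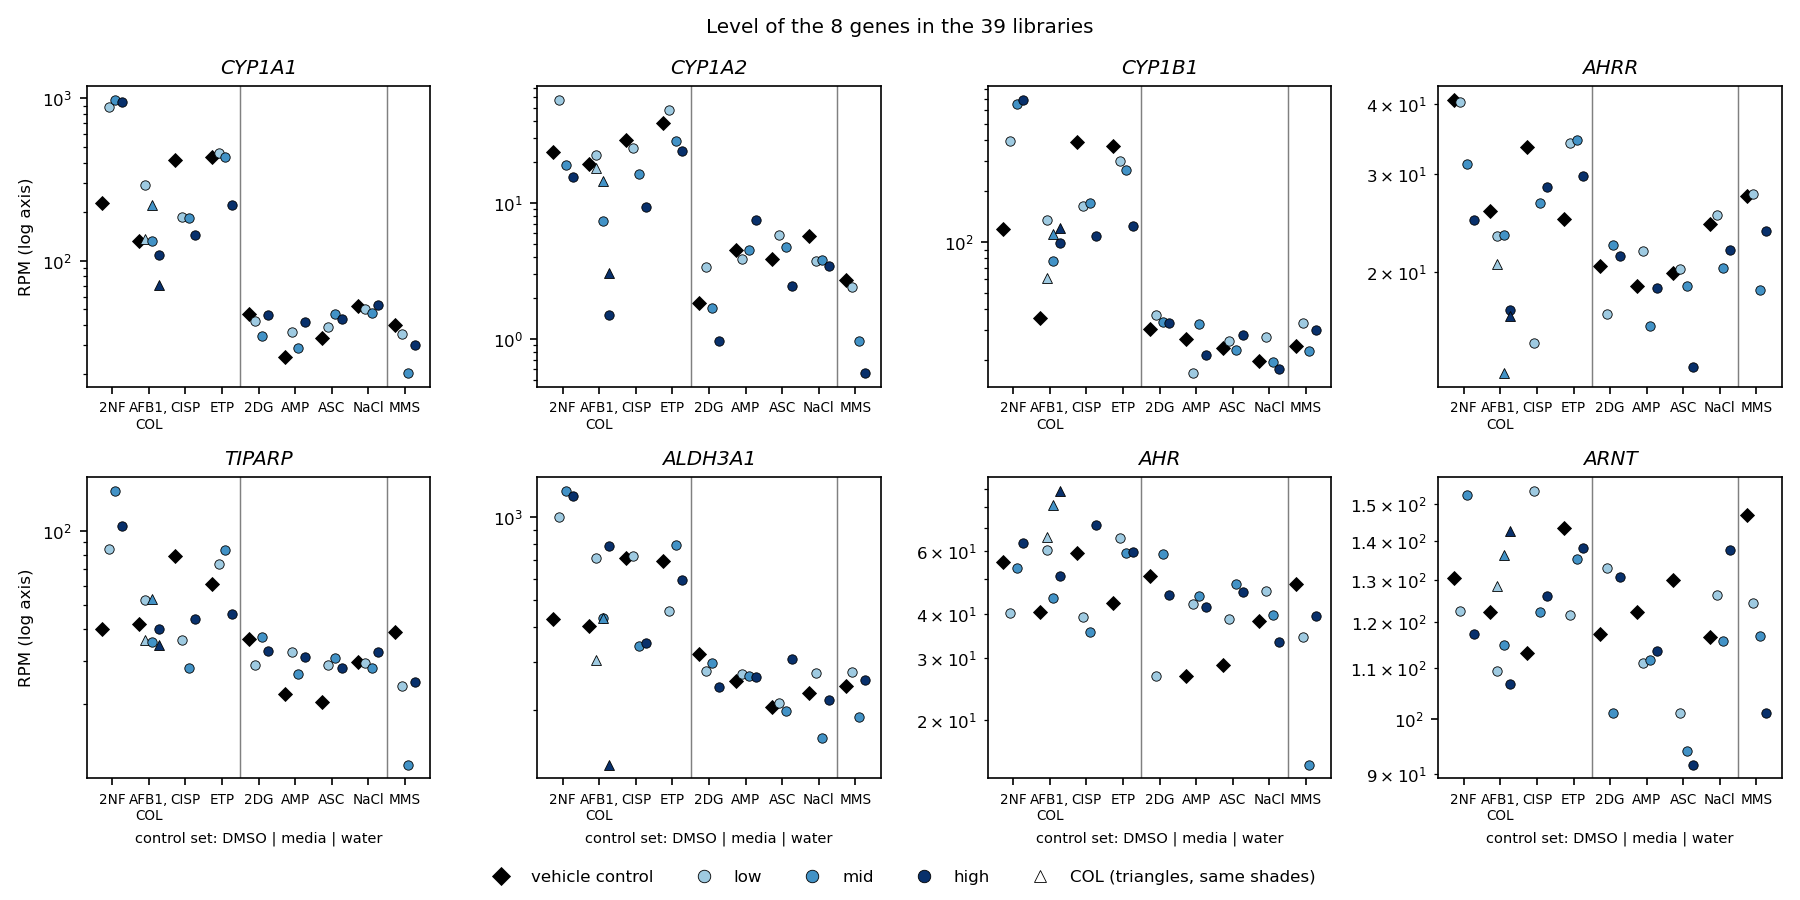
RPM (log axis) of each gene in the 39 libraries, by control set, with diamonds for vehicle controls, circles shaded by concentration and triangles for COL. The vertical lines part the DMSO, media and water sets: all 19 CYP1A1 values of the DMSO sets lie at or above 70.4 RPM and the other 20 at or below 53.5 RPM.

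Each treated library was next set against its own vehicle control as the difference of log2(RPM + 1), called the log2 ratio. A ratio of at least 2-fold was found in 40 of 240 pairs of gene and condition (16.7%), 20 higher and 20 lower, against 3.30% of pairs over 12790 genes. All 8 genes passed the minimum mean level of 1 RPM behind that background. With 1 library a condition these ratios have no replicate check. Of the 40, 18 were also at least 2-fold in the same direction against the averaged controls of their vehicle, and 10 of those 18 were in 2NF. MMS had 1 water control, so for its 3 ratios among the 18 both references were the same library and nothing was checked. The mean of 4 controls includes the matched control. The share over all genes was not computed for that reference.

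2NF, an aromatic nitro compound, gave the highest CYP1A1, CYP1B1, TIPARP and ALDH3A1 levels of the 39 libraries. CYP1A1 was at 226 RPM in the control and at 886, 980 and 942 RPM at 10, 50 and 250 µM, which are log2 ratios of 1.97, 2.11 and 2.06. All 3 treated libraries lay far above the control and close to each other. Against the mean of the 4 DMSO controls the ratios were 1.71, 1.85 and 1.80.

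CYP1B1 was at 118 RPM in the 2NF control and at 394, 651 and 692 RPM with rising concentration (log2 ratios 1.73, 2.45 and 2.54). TIPARP was at 40.0 RPM and then at 84.2, 144 and 104 RPM (1.06, 1.82 and 1.36), so that its highest value was at the mid concentration. ALDH3A1 was at 427 RPM and then at 1005, 1245 and 1196 RPM (1.23, 1.54 and 1.48). Each of the 4 genes was at least 2-fold above its control in all 3 libraries, where at 10, 50 and 250 µM 0.704%, 2.78% and 4.46% of 12790 genes were. Against the mean of the 4 DMSO controls 9 of these 12 ratios stayed at 2-fold or more, and TIPARP fell short at 10 and 250 µM (0.65 and 0.96) and ALDH3A1 at 10 µM (0.89).

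CYP1A2 was higher at the low concentration alone. It was at 23.8 RPM in the 2NF control and at 57.1, 18.9 and 15.5 RPM in order of concentration, the first 2.35-fold above the control and the others below it. At 10 µM its log2 ratio was 1.23, the same as that of ALDH3A1, and 1.07 against the mean of the 4 DMSO controls, so that 5 of the 8 genes were at least 2-fold higher there. AHRR was at 40.7 RPM in the control, the highest of the 39 libraries, and at 40.3, 31.2 and 24.8 RPM in the treated libraries. Against the mean of the 4 DMSO controls its log2 ratios were 0.39, 0.03 and −0.29. AHR (55.9, then 40.0, 53.9 and 63.2 RPM) and ARNT (130, then 123, 153 and 117 RPM) stayed within 2-fold of the control.

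In the fit of all 39 libraries the 3 concentrations stand in for replicates, so the spread includes the effect of concentration and the lone control is assumed to vary like the treated libraries. The 2NF effect was 2.01 ± 0.52 for CYP1A1 (adjusted p = 0.11), 2.25 ± 0.47 for CYP1B1 (0.066), 1.43 ± 0.38 for TIPARP (0.12) and 1.39 ± 0.49 for ALDH3A1 (0.30). None of these passed. Over the 8 genes and 10 chemicals edgeR called 0 of 80 effects, where 0.122% of pairs of gene and chemical were called over 14107 genes, and 15 of 80 had an unadjusted p under 0.05, against 6.87% of pairs over all genes. DESeq2 called 3, CYP1A1, CYP1B1 and TIPARP in 2NF, where it called 1.02% of 14107 genes. Without the low concentration edgeR called 5, the same 3 with CYP1B1 in COL and TIPARP in MMS, and the share over all pairs was then 2.07%, with 5.46% of genes in 2NF. The lowest adjusted p of the CYP1B1 effect of 2NF over 6 alternatives was 0.00018 and the highest 0.50.

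The 2NF effect was also set against the mean effect of the other 9 chemicals. The difference was 2.12 ± 0.55 for CYP1A1 (adjusted p = 0.31), 2.10 ± 0.49 for CYP1B1 (0.23), 1.57 ± 0.40 for TIPARP (0.30) and 1.47 ± 0.52 for ALDH3A1 (0.66). For the 8 genes and 10 chemicals 0 of 80 such differences passed in edgeR, against 0.0439% called over all genes, and 15 had an unadjusted p under 0.05, against 5.90% over all genes. DESeq2 called the same 3 genes in 2NF, where it called 0.142% of genes.

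Of 16 other genes of the AHR battery all were tested, and 0 were called in the 2NF effect, with 8 at an unadjusted p under 0.05, against 9.72% of all genes, and a median log2 difference of 0.47 against 0.0072 over all genes. NQO1, a quinone reductase controlled by AHR and NFE2L2, was at 5.76 RPM in the 2NF control and at 7.64, 7.23 and 4.51 RPM, and its effect of 0.13 ± 0.30 did not pass (adjusted p = 0.96). Between DMSO and media controls NQO1 differed by −0.36 ± 0.28 (adjusted p = 0.51), and UGT1A1 and GSTA1, named after their values were seen, were the 2 of the 16 called, both higher in DMSO. In the other chemicals SERPINB2 was called higher in the COL effect (4.60 ± 0.76, adjusted p = 0.017) and trend, and HES1 lower in the MMS effect (−2.07 ± 0.41, adjusted p = 0.015), both also named after their values were seen. The amplicon of UGT1A1 may share sequence with other UGT1A genes, which have common exons.

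The summed levels of both marker lists were lower in the 2NF libraries than in their control. That of the hepatocyte markers was 38079 RPM in the control and 31547, 15403 and 14311 RPM in order of concentration, and that of the cholangiocyte markers was 711 RPM and then 307, 312 and 326 RPM. KRT19, named after its values were seen, was called lower in the 2NF effect (−1.66 ± 0.23, adjusted p = 0.0010) and holds most of the cholangiocyte sum. Of the 6 cholangiocyte markers tested 3 had a positive and 3 a negative difference, with a median of 0.053, whereas all 10 hepatocyte markers had a negative one, with a median of −0.75 and 0 called. The part of these changes in the 2NF values of the 8 genes was not tested.

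CISP, a platinum compound, showed lower values of the same targets. CYP1A1 was at 414 RPM in its control and at 187, 182 and 144 RPM at 2, 5 and 10 µM. CYP1B1 was at 390 RPM and then at 164, 171 and 108 RPM, and TIPARP was at 79.3 RPM and then at 36.1, 27.9 and 44.3 RPM. Every CISP library was below its control in the 3 genes. ALDH3A1 was at 712 RPM in the control and at 725, 342 and 352 RPM, and AHRR was at 33.5 RPM and then at 15.0, 26.7 and 28.4 RPM. At each concentration 4 of the 8 genes were at least 2-fold lower, where 6.70%, 4.33% and 0.367% of 12790 genes were, but they were not the same 4. CYP1A1 and CYP1B1 were among them at each concentration, joined by AHRR and TIPARP at 2 µM, by TIPARP and ALDH3A1 at 5 µM and by CYP1A2 and ALDH3A1 at 10 µM. The summed level of hepatocyte markers was 50247 RPM in the CISP control, the highest of the DMSO controls, and 36563, 26959 and 40091 RPM in the treated libraries, and that of cholangiocyte markers was 472 RPM, the lowest of the DMSO controls, and then 908, 940 and 799 RPM. The part of these markers in the CISP values was not tested.

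The CISP effects were −1.246 ± 0.43 for CYP1A1 (adjusted p = 0.67), −1.37 ± 0.38 for CYP1B1 and −1.11 ± 0.33 for TIPARP (both 0.63), and none passed. The CISP control was the highest DMSO control of CYP1B1, TIPARP and ALDH3A1 and the second highest of CYP1A1. Against the mean of the 4 DMSO controls the CYP1A1 ratios were −0.53, −0.57 and −0.90 and those of CYP1B1 were 0.06, 0.12 and −0.53, so that 1 of the 12 2-fold ratios of CISP, CYP1A2 at 10 µM, was at least 2-fold against both references.

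AFB1, a mycotoxin that P450 enzymes activate, and COL share the DMSO control with the lowest CYP1A1 and CYP1B1. CYP1B1 was at 35.3 RPM in that control, at 135, 76.8 and 98.9 RPM with AFB1 and at 61.0, 112 and 121 RPM with COL, in order of concentration. All 6 treated libraries lay above the shared control, and all but AFB1 at 0.25 µM and COL at 0.3 µM lay below the 2NF control of 118 RPM. The log2 ratios were 1.91, 1.10 and 1.46 for AFB1 and 0.77, 1.64 and 1.74 for COL. Against the mean of the 4 DMSO controls they were −0.22, −1.02 and −0.66 and −1.35, −0.49 and −0.38. The fitted effects of 1.52 ± 0.46 for AFB1 (adjusted p = 1.00) and 1.42 ± 0.45 for COL (0.21) did not pass, and both turned negative where vehicle took the place of the control set, to −1.14 and −1.24.

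**Figure D2:**
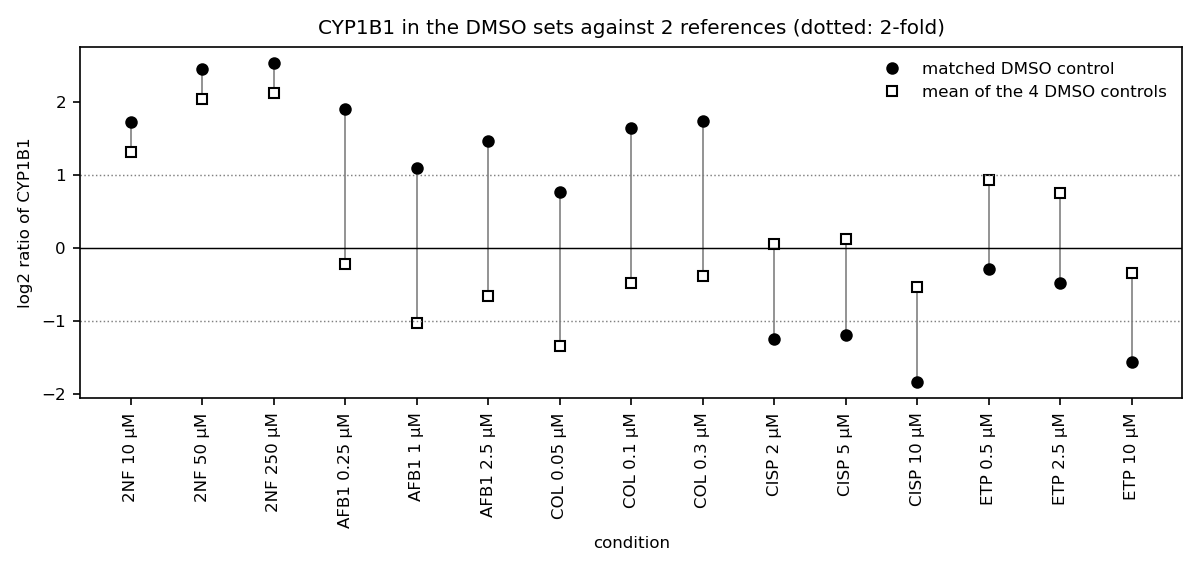
Log2 ratio of CYP1B1 in the 15 treated libraries of the DMSO sets against the matched control (filled circles) and against the mean of the 4 DMSO controls (open squares), with dotted lines at 2-fold. The 3 2NF libraries exceed 2-fold against both references, at 1.73, 2.45 and 2.54 and at 1.32, 2.04 and 2.13, whereas 3 AFB1, 3 COL, 2 CISP and 2 ETP libraries lie on opposite sides of 0.

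CYP1A1 in the same set was at 132 RPM in the control and at 290, 133 and 108 RPM with AFB1, so that the low concentration was more than 2-fold higher and the others were near the control. With the 4 DMSO controls averaged as the reference, the CYP1A1 ratios in AFB1 were 0.10, −1.02 and −1.32, with no 2-fold rise and the upper concentrations at least 2-fold lower. CYP1A1 and CYP1B1 were the 2 genes at least 2-fold above the matched control at 0.25 µM AFB1, where 0.117% of 12790 genes were. With COL CYP1A1 was at 135, 220 and 70.4 RPM, with ratios of −0.99, −0.30 and −1.93 against the mean of the 4 DMSO controls. At 0.3 µM COL 2 of the 8 genes were at least 2-fold higher (CYP1B1 and AHR) and 2 lower (CYP1A2 and ALDH3A1), where 3.94% and 4.64% of 12790 genes were. ALDH3A1 was at 403 RPM in the control, at 715, 434 and 785 RPM with AFB1 and at 304, 432 and 127 RPM with COL, where the last is the lowest value of the 39 libraries. AHR was at 40.5 RPM in the control and at 65.7, 80.9 and 88.8 RPM with COL, the last being the highest AHR value of the 39 libraries, but the COL effect of 0.91 ± 0.40 did not pass (adjusted p = 0.45).

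In edgeR, CYP1A2 was the gene with a called trend along concentration. Without the filter on low counts, trends of CYP1A1, CYP1B1 and ALDH3A1 were also called in some chemicals. The fitted factor for CYP1A2, averaged per step of concentration rank, was 0.261 in AFB1, a log2 slope of −1.94 ± 0.25 (edgeR, adjusted p = 0.0053, over 3 libraries). In 2NF the factor was 0.509, a slope of −0.97 ± 0.20 (adjusted p = 0.037), and most of the fall lay between the low and mid concentrations. In AFB1 CYP1A2 was at 19.2 RPM in the control and at 22.5, 7.38 and 1.496 RPM at 0.25, 1 and 2.5 µM. The last value rests on 16 counts, with an exact 95% Poisson interval of 0.855 to 2.43 RPM that covers counting error alone, and lies below the interval of the control (17.0 to 21.6 RPM). In 2NF the slope ran from 57.1 RPM at 10 µM to 15.5 RPM at 250 µM, with the control between them.

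These 2 were the trends called among 80 (0.176% of pairs of gene and chemical were called over 14107 genes, and 0.773% of genes in 2NF and 0.0213% in AFB1). The slope rests on the 3 treated libraries of a chemical, and its control has no weight in it. DESeq2 called both and CYP1A2 in COL, with 0.643% of pairs called over all genes. In COL CYP1A2 was at 17.9, 14.4 and 3.04 RPM (slope −1.18 ± 0.25, adjusted p = 0.064), in CISP at 25.3, 16.3 and 9.26 RPM (−0.76 ± 0.22, 0.12), in ETP at 48.1, 28.5 and 23.9 RPM (−0.50 ± 0.20, 1.00) and in MMS at 2.42, 0.97 and 0.56 RPM (−1.12 ± 0.38, 0.25). The order from low to high concentration was downward in each of these 6 chemicals. The MMS values rest on 24, 11 and 5 counts. The CYP1A2 order was also downward in 2 media chemicals, 2DG with 3.37, 1.69 and 0.97 RPM (−0.90 ± 0.30, 1.00) and ASC with 5.81, 4.76 and 2.44 RPM (−0.58 ± 0.26, 1.00), whereas CYP1A2 went from 3.86 to 7.43 RPM in AMP (0.47 ± 0.24, 1.00) and was between 3.46 and 3.81 RPM in the treated NaCl libraries.

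**Figure D3:**
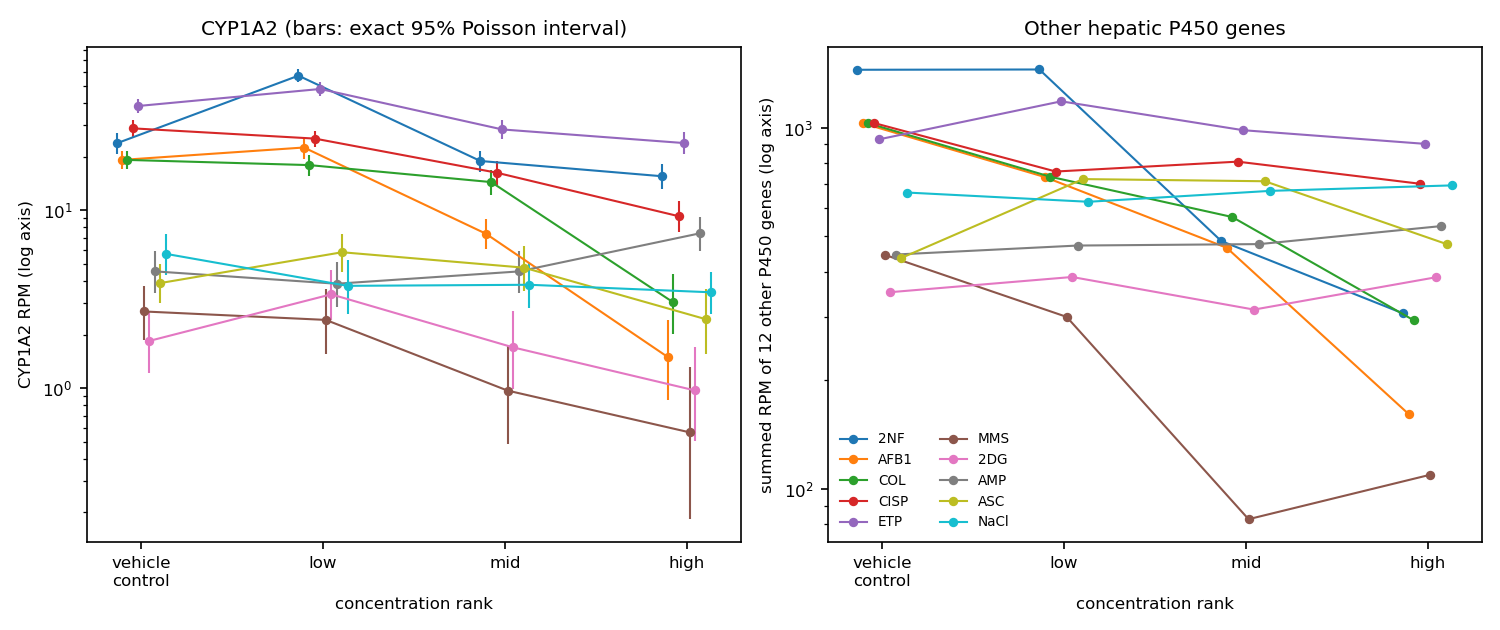
CYP1A2 RPM (left, with exact 95% Poisson intervals) and the summed RPM of 12 other hepatic P450 genes (right) in the vehicle control and at the low, mid and high concentration of each chemical, both on log axes. CYP1A2 ended at 1.496 RPM in AFB1 and 15.5 RPM in 2NF, and the summed level of the other P450 genes at 161 and 306 RPM.

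Other P450 genes moved with CYP1A2. In the 2NF trend 6 of 12 other hepatic P450 genes were called lower and 0 higher, where 0.432% of 14107 genes were called lower. Of the 12 slopes 11 were negative and 1 was positive, with a median of −1.43 against −0.0062 over all genes. CYP7A1, the rate-limiting enzyme of bile acid synthesis, fell by 2.24 per step (adjusted p = 0.019). CYP2C8, which oxidises many drugs, fell by 1.86 (0.027), and CYP2B6 fell by 1.72 (0.033). In the AFB1 trend CYP3A4, among the most abundant P450 enzymes of adult liver, fell by 2.54 per step (0.0045), the other 11 did not pass and all 12 slopes were negative.

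The summed level of the 12 genes was 1028 RPM in the AFB1 control and 730, 465 and 161 RPM in the treated libraries, and 1445 RPM in the 2NF control and then 1447, 486 and 306 RPM. Of the hepatocyte markers TTR, a plasma carrier of thyroid hormone, fell in the 2NF trend by 0.96 per step (adjusted p = 0.044) and 0 of 10 passed in AFB1, where the summed level was 43915 RPM in the control and 46711, 35327 and 26757 RPM. Cholangiocyte markers gave 0 calls in either trend, with 6 tested. The part of these genes in the CYP1A2 trend was not tested.

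MMS, an alkylating agent given in water, had TIPARP at 39.2 RPM in the control and at 23.8, 11.4 and 24.6 RPM (effect −1.08 ± 0.34, adjusted p = 0.11), the mid concentration being the lowest TIPARP value of the 39 libraries. AHR was at 48.4 RPM and then at 34.4, 15.0 and 39.4 RPM, again lowest of all libraries at 100 µM. These 2 genes were the 2-fold ratios of that library, in which 7.51% of 12790 genes were at least 2-fold lower. The summed level of hepatocyte markers there was 4467 RPM against 27922 RPM in the water control, and its part was not tested.

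ETP, a topoisomerase inhibitor, left the genes near their control at 0.5 and 2.5 µM, with CYP1A1 at 435 RPM in the control and 460 and 435 RPM in those libraries. At 10 µM CYP1A1 was at 221 RPM and CYP1B1 at 124 RPM against 369 RPM in the control. CYP1B1 was the 1 gene at least 2-fold lower there, where 0.0625% of 12790 genes were, and its ratio of −1.57 became −0.34 against the mean of the DMSO controls. The media chemicals 2DG, AMP, ASC and NaCl gave 0 of 96 ratios of 2-fold or more, with CYP1A1 between 28.7 and 53.5 RPM over their 12 treated libraries. In those libraries 0.219% (NaCl at 1 mM) to 5.26% (ASC at 2 mM) of 12790 genes passed 2-fold.

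None of the 8 genes passed between the classes. DDI minus non-DDI chemicals, with control set as a block, gave 0 of 8 calls at the low, mid and high concentration in edgeR, with 0, 2 and 0 at an unadjusted p under 0.05 (2.26%, 5.75% and 7.85% of all genes), and 0 in DESeq2, with 1, 2 and 0. Of genes tested, 0%, 0% and 0.0515% were called. Class and vehicle were nearly confounded, because the DDI chemicals but MMS were in DMSO and the non-DDI chemicals but COL were in medium. The DDI class also held both 2NF, with higher CYP1A1 and CYP1B1 than its control, and CISP, with lower values. The absence of calls therefore does not show that the classes acted alike. The 2 at the mid concentration were AHR (−0.93 ± 0.31, adjusted p = 0.81) and CYP1A2 (−0.72 ± 0.25, 0.81). CYP1A1 differed by 0.45 ± 0.41, −0.35 ± 0.45 and −0.23 ± 0.50 at the 3 concentrations (adjusted p = 1.00, 0.92 and 0.97).

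Ratios of 2-fold or more were spread unevenly over the 8 genes. ARNT passed 2-fold in 0 of 30 conditions, AHRR in 1 and AHR in 2, whereas CYP1B1 passed in 12, CYP1A1 in 7, and CYP1A2, TIPARP and ALDH3A1 in 6 each. ARNT ranged from 91.7 to 154 RPM over the 39 libraries, with its lowest values at the 3 ASC concentrations and at 2DG 5 mM and MMS 200 µM. Of 11 genes of the complex and its coactivators, 0 were called in any chemical effect or trend, and between DMSO and media controls EP300 was called higher and SRC lower, both named after their values were seen. Of 8 enzymes that act on tryptophan or its products 5 were tested, with 0 calls in any effect or trend, and KYNU was called lower in DMSO. IDO1 was at 0.096 RPM or less in every library, and TDO2 ran from 18.3 to 210 RPM.

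Across the 30 conditions, which share controls within a chemical, the log2 ratios of CYP1A1 had a Pearson correlation of 0.89 with those of TIPARP, 0.79 with ALDH3A1, 0.72 with CYP1B1, 0.46 with CYP1A2 and 0.03 with AHRR, given as a description. Of 12782 other genes, the 5 most like CYP1A1 were NKD2 (0.82), RAP1GAP (0.78), STC2 (0.78), SLC37A2 (0.76) and SLC6A6 (0.75). STC2, a secreted glycoprotein also on the AHR battery list, was at 1.99 RPM in the 2NF control and at 11.5, 44.4 and 25.5 RPM in the 2NF libraries. The 5 most like CYP1A2 were CYP2C19 (0.79), PARD3B (0.77), AIG1 (0.74), HECW1 (0.72) and PPM1L (0.72). CYP2C19, a drug-oxidising P450, was at 60.1 RPM in the AFB1 control and at 36.0, 19.1 and 4.86 RPM with AFB1.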

How the data were processed

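RNA of HepaRG™ cells was measured in 39 AmpliSeq libraries. Reads had been mapped by the authors to the transcripts of the panel (hg19) with TMAP of the Ion Torrent software, merged over runs by barcode and deposited as raw counts for each amplicon. A second table deposited by the authors gives RPM, and values recomputed from the counts matched it within 0.000538. The 10 spike-in targets with 0 counts were left out. Samples were grouped from the GEO labels.

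The 8 members, the gene lists and the tests were chosen with earlier results of these data known. Log2 ratios used RPM plus a pseudocount of 1, and 2-fold backgrounds used the 12790 genes with a mean of at least 1 RPM. Deposited counts were tested with edgeR 4.0.16 in R 4.3.3 (TMM, filterByExpr, quasi-likelihood, Benjamini-Hochberg over all genes tested, threshold 0.05). The chemical fit held the control set as a block and 1 term for each chemical (20 residual degrees of freedom), and the trend fit added slopes on the concentration rank (10). The controls fit compared 4 DMSO with 4 media controls beside the water control (6), and each class fit held 1 concentration (8). The fits were also run on simulated counts, and the outcome is not reported here. Apart from the changes put in, those counts held no differences between control sets, vehicles or concentrations, unlike these data. DESeq2 1.42.0, no filter, other controls, another pseudocount and leaving out libraries were alternatives. DESeq2 and no filter for the comparison with the other 9 chemicals were added after seeing the data.

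Named by a fixed rule were the 8 members, NQO1, up to 4 genes of a fixed list that passed in a chemical where a member passed, and the 5 genes most like CYP1A1 and CYP1A2. Genes named outside this rule, among them SERPINB2, HES1, KRT19 and those of the control comparison, were named after their values were seen. A few list genes are counted but not reported here by name. The lists were AHR battery (16), receptor complex (11), tryptophan enzymes (8), other hepatic P450 (12), hepatocyte (10) and cholangiocyte (10) genes. Totals of 8504699 to 16425527 counts, without molecular identifiers, limit precision for genes with few counts, and intervals cover counting error only. Pooled cultures leave the spread between cultures unmeasured. Python 3.11.15 was used with pandas 2.3.3, scipy 1.17.1 and matplotlib 3.10.9.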

Additional observations from a re-analysis of the deposited data

How the results depend on the processing

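The ratios depended most on the control. Of the 2-fold ratios, 40 with the matched control, 25 were counted with the mean of the controls of the same vehicle and 72 with the mean of all 9 controls. For MMS the same-vehicle mean was its 1 matched control. Against the mean of all 9 controls, called ratios changed sign in CISP at 2, 5 and 10 µM for CYP1A1 (1.01, 0.98 and 0.64) and CYP1B1 (1.51, 1.57 and 0.92), in CISP at 10 µM for CYP1A2 (0.018) and ALDH3A1 (0.0024), and in ETP at 10 µM for CYP1B1 (1.12). Against the same-vehicle mean, CYP1B1 changed sign in AFB1 at 0.25, 1 and 2.5 µM (−0.22, −1.02 and −0.66), in COL at 0.1 and 0.3 µM (−0.49 and −0.38) and in CISP at 2 and 5 µM (0.057 and 0.12). With vehicle in place of control set the CYP1B1 effect became −1.14 in AFB1 and −1.24 in COL, and its difference from the other 9 chemicals −1.12 in AFB1, −1.22 in COL and 0.16 in ETP. In these settings the controls differ by construction.

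The 0 chemical effects called became 2 without a filter, 3 with DESeq2 and 6 with vehicle in place of control set (CYP1A1, TIPARP and ALDH3A1 in 2NF and CYP1A1, AHRR and ALDH3A1 in COL, where 6.32% and 9.73% of all genes were then called, against 0.0284% and 0.0496%), and 0 to 5 with 1 concentration left out. The 0 differences from the other 9 chemicals became 3 with DESeq2, 7 with vehicle (1.41% of pairs over all genes, against 0.0439%), and 0 to 1 with 1 concentration left out. All 7 with vehicle were in 2NF and COL, where 3.64% and 7% of all genes were then called, against 0.0142% and 0.0284%. The 2 trends became 10 without a filter (1.43% of pairs over all genes, against 0.176%) and 3 with DESeq2. Of the 10 without a filter, CYP1A2 gave those in 2NF, AFB1, CISP, COL and MMS. The others were CYP1A1 in AFB1, ALDH3A1 in CISP and COL, and CYP1B1 in COL and ETP. The cause of these changes in count was not tested. The 5 members called between DMSO and media controls were 4 to 6 with 1 control left out. The class counts were 0 in every alternative run. Without the minimum level, 2.10% of all pairs of gene and condition passed 2-fold, against 3.30%. The match of treated libraries to their control was held as a block in the chemical fits. Beyond this match no paired analysis was possible because each condition had 1 library and the labels give no replicate numbers. Each condition had 1 library, so depth limits CYP1A2 most, with 5 counts in its lowest library.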
